A study of Mus musculus with 6 samples.

Results

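The suppressor of cytokine signalling (SOCS) family was read in visceral adipose ILC2s, group 2 innate lymphoid cells, that had been cultured with or without engagement of the receptor GITR. Its 8 members, Cish and Socs1 to Socs7, were taken by gene name from 53278 deposited genes, with earlier results of these data known. All 8 passed the filter on low values that left 14361 genes for testing. None of the 8 passed the test of a difference between DTA-1 and isotype control, where 0% of all tested genes were called. The libraries of the groups overlapped for every member, and they did not overlap for 11.3% of all tested genes. Cish and Socs1 together supplied 90.6% to 91.7% of the family's transcript level per kilobase of annotated exon.

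SOCS proteins are brakes on cytokine receptors that work through Janus kinases (JAKs) and STAT transcription factors. An SH2 domain binds phosphorylated tyrosines on the receptor or its kinase, and a C-terminal SOCS box recruits elongins, a cullin and a RING protein into a ubiquitin ligase. Cytokines induce several members through STATs, so their transcripts are widely read as a record of recent JAK and STAT signalling. ILC2s depend on IL-2 and IL-7, which share the common gamma chain and signal through STAT5, whereas GITR is a member of the TNF receptor superfamily and has no Janus kinase of its own.

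Both groups came from C57BL/6 mice at 8 weeks of age that had received 3 intraperitoneal injections of 1 µg recombinant mouse IL-33, an alarmin that expands ILC2s, and no library of uninjected mice was compared here. Sorted cells were cultured with 10 ng/mL IL-2 and 10 ng/mL IL-7, and either with 5 µg/mL of the agonistic anti-GITR antibody DTA-1 or with an isotype control antibody. The sample titles call the controls isotype, whereas their columns of counts are headed PBS-GITR. The labels give 48 h of culture, whereas the study's results text gives a shorter time. Each group had 3 libraries, prepared from 10 ng of RNA. The labels do not say whether these came from separate mice or cultures, so p-values measure only the spread between these libraries, which may be technical. Both groups contained IL-2 and IL-7 throughout, so the comparison concerns the addition of DTA-1 to cells already receiving cytokines.

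Libraries held 30569351 to 35131329 counts. One library stood apart from its group. A chi-square distance between count profiles, divided by its degrees of freedom, was taken between libraries. The library labelled DTA-1 replicate 1 was 20.5 and 21.4 from the others of its group but 7.69 to 8.86 from the controls. Values without it are therefore given for the SOCS genes, for calls and for the medians of the lists drawn. Leaving out a library because it resembles the controls favours a difference, so p-values without it are descriptive and not independent tests. All 14 ILC2 markers were detected, and their normalized counts summed to 14501 to 15328 in the controls and 15517 to 20016 with DTA-1. Within that sum Il5 stood at 5063 to 5493 in the controls and 5627 to 9695 with DTA-1. Il2ra, Id2, Areg and Il13 were also higher in DTA-1 replicates 2 and 3 than in any control. Gata3, Il1rl1, Icos, Arg1 and Thy1 were lower in those 2 libraries than in any control. The sort had removed cells bearing lineage markers such as CD3ε, CD45R, Gr-1 and CD11b. Of the other cell types checked, only the T cell markers summed to over 40 normalized counts (41.0 to 54.2 in isotype control and 47.7 to 51.3 in DTA-1). Cd3g made up 36.2 to 48.6 of that sum, with Cd3e at most 3.72 and Cd8a at 0. The B cell sum of 16.6 to 18.2 was nearly all Cd79b, with Ms4a1 at 0, and the endothelial sum was nearly all Pecam1, at 18.4 to 24.4 in the controls and 10.4 to 18.3 with DTA-1, with Cdh5 at 0. Each of the remaining marker sums was under 20 normalized counts. The part of other cells in the family's values was not tested.

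Promoter sequence is shown for the 3 members whose window held a cytokine-response motif. RefSeq windows on GRCm38.p6, from 250 bases before to 50 bases after the start, were given for 4 members (Cish, Socs1, Socs3 and Socs4). They were searched on both strands for TTCNNNGAA, the STAT-type palindrome, and for GAAANNGAAA, the interferon-response type bound by IRF factors. The first motif occurs in 8.30% of all 32851 windows and the second in 3.44%. Capitals mark the matches, and each sequence is written 5′ to 3′ on the strand of its gene, at chr9:107296654-107296683 (plus strand) for Cish, chr16:10785537-10785786 (minus strand) for Socs1 and chr11:117969502-117969531 (minus strand) for Socs3.
Cish: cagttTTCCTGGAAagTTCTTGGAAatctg
Socs1: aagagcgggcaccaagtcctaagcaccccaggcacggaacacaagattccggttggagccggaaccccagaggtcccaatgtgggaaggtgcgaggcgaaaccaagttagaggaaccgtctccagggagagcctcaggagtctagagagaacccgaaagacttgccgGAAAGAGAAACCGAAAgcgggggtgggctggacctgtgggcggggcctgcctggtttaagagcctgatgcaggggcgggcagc
Socs3: agaaaccagccTTCTTAGAAgggagggggg
Cish held 2 STAT-type palindromes, a number reached by 0.457% of windows, and these bases also lie within an annotated Cish exon. Socs1 held none of them but 2 overlapping matches of the interferon type, reached by 0.225% of windows, in the 250 bases before its start. Socs3 held 1 STAT-type palindrome beginning 154 bases before the RefSeq start. The Socs3 stretch shown lies within the longer annotated span of that gene, though outside annotated exons. The Socs4 window held neither. A match describes these letters and is not evidence of binding.

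Cish and Socs2 are the members that STAT5 is best known to induce. Cish (chromosome 9, 107296026 to 107302784, plus strand, GRCm38) encodes CIS, which restrains signalling from IL-2 family receptors and limits ILC2 and natural killer cell responses. Its levels were 571, 542 and 629 normalized counts (CPM after TMM scaling) in the isotype control libraries. In the DTA-1 libraries they were 568, 676 and 634. Replicates 2 and 3 of DTA-1 lay above every control and replicate 1 lay among them, so the groups overlapped. The log2 fold change was 0.11 (SE 0.08, 95% interval -0.07 to 0.28), with an adjusted p of 0.797 (edgeR quasi-likelihood test, Benjamini-Hochberg over all genes tested). As in any bulk sample, fewer expressing cells and less RNA per cell cannot be told apart here. Without DTA-1 replicate 1 the Cish log2 fold change was 0.17 (SE 0.07, interval 0.02 to 0.33) with an edgeR adjusted p of 0.302, so Cish was not called there either, and over 13 alternatives its adjusted p ran from 0.302 to 0.999. Its unadjusted p in that edgeR fit was 0.0331, and 14% of all genes tested there also fell under 0.05. A pseudogene and an antisense transcript annotated over Cish held at most 0.417% and 0.334% of its counts.

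Socs2 (chromosome 10, 95385362 to 95417180, minus strand), which encodes a restraint on growth hormone and STAT5 signalling, was the steadiest member. Control libraries held 178, 157 and 171 normalized counts of it, and DTA-1 libraries held 174, 172 and 167. All 3 DTA-1 values fell inside the control range, and its highest library was 1.13 times its lowest. The log2 fold change of 0.02 had a 95% interval of -0.13 to 0.16, or 0.915-fold to 1.12-fold (edgeR adjusted p = 0.969), and without DTA-1 replicate 1 it was 0.00.

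Socs1 and Socs3 carry a kinase inhibitory region and can block Janus kinases directly. Socs1 (chromosome 16, 10783808 to 10785536, minus strand), a brake on interferon gamma and common gamma chain cytokines, measured 599, 525 and 598 normalized counts in isotype control. Its DTA-1 libraries held 540, 559 and 570. Every DTA-1 library lay inside the control range. The log2 fold change was -0.05 (SE 0.07, 95% interval -0.19 to 0.10, edgeR adjusted p = 0.919), and without DTA-1 replicate 1 it was -0.02.

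Socs3 (chromosome 11, 117966079 to 117970047, minus strand), the brake on gp130 receptors such as that for IL-6, was found at 66.5, 75.2 and 91.1 normalized counts in the controls and at 71.0, 65.2 and 76.8 with DTA-1. Control replicate 3 was the highest library and DTA-1 replicate 2 the lowest, with the remaining 4 interleaved. Its log2 fold change of -0.13 (SE 0.11, 95% interval -0.38 to 0.12) did not pass the test (edgeR adjusted p = 0.845), and it was also -0.13 without DTA-1 replicate 1. Socs3 was among the more variable genes for its level, as 6.60% of the 500 genes nearest to it in mean had a higher fitted dispersion.

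**Figure D1:**
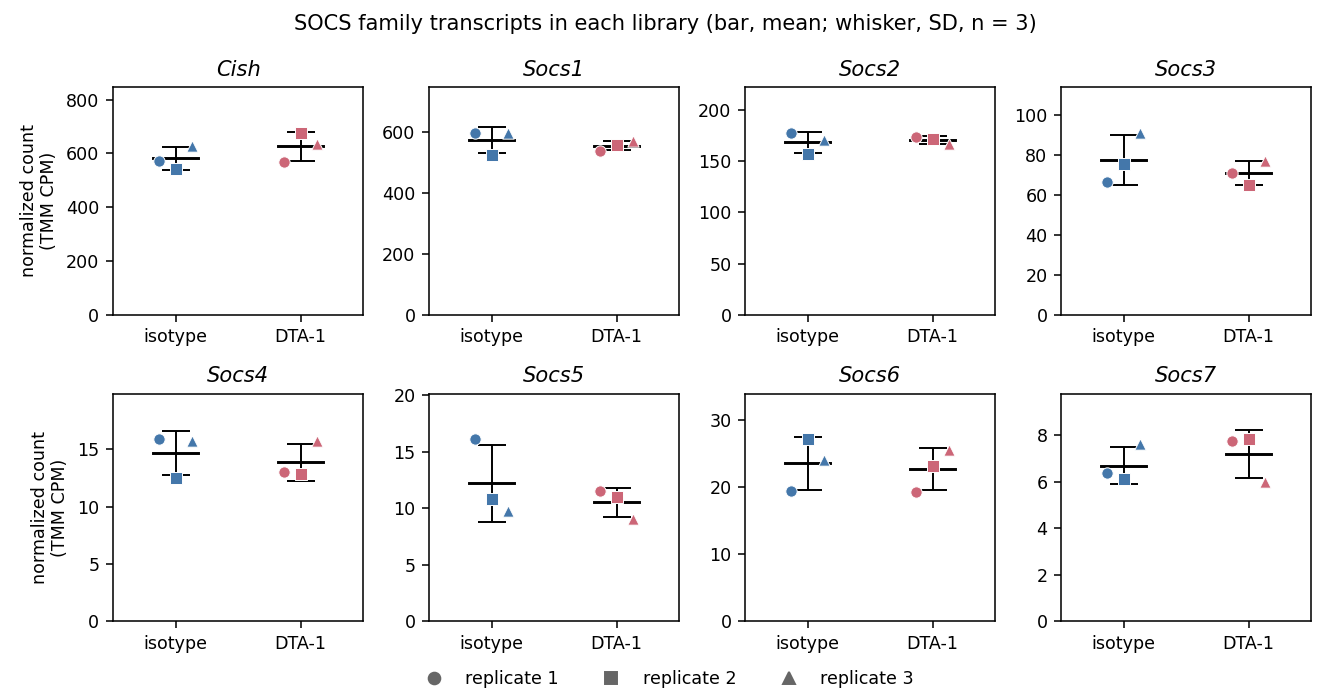
Normalized counts (CPM after TMM scaling) of each SOCS family gene in every library, with each panel on its own scale and bars giving the mean and SD of 3 libraries a group. Isotype control and DTA-1 points overlapped for all 8 genes, and for Cish the library labelled DTA-1 replicate 1, at 568, sat among the controls.

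Socs4 to Socs7 have long N-terminal regions, and Socs4 and Socs5 are linked to the epidermal growth factor receptor. Socs5 (chromosome 17, 87107679 to 87137583, plus strand), also described as a restraint on IL-4 signalling, was the least precise member. It stood at 16.1, 10.8 and 9.72 normalized counts in the controls and at 11.5, 11.02 and 9.07 with DTA-1. Control replicate 1 was the highest value, and the other 5 libraries lay between 9.07 and 11.5. The log2 fold change was -0.21 (SE 0.21, 95% interval -0.67 to 0.24, edgeR adjusted p = 0.859), and it was 0.04 without control replicate 1 and -0.28 without DTA-1 replicate 1.

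Socs4 (chromosome 14, 47276931 to 47296102, plus strand) measured 15.9, 12.5 and 15.7 normalized counts in the controls and 13.003, 12.9 and 15.7 with DTA-1. Socs6 (chromosome 18, 88665224 to 88927481, minus strand), which targets receptor tyrosine kinases such as KIT, measured 19.4, 27.1 and 24.1 against 19.3, 23.2 and 25.6. Socs7 (chromosome 11, 97362551 to 97398542, plus strand), linked to insulin receptor signalling, was the lowest member at 6.36, 6.10 and 7.60 against 7.76, 7.82 and 5.99. In each of these 3 genes high and low libraries occurred in both groups. Their log2 fold changes were -0.08 (SE 0.16), -0.05 (SE 0.15) and 0.10 (SE 0.20), and the edgeR adjusted p-values were 0.941, 0.961 and 0.941. These log2 values became -0.04, 0.05 and 0.05 when DTA-1 replicate 1 was left out.

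Read across the family, 0 of 8 members were called at an adjusted p under 0.05 with a change of at least 1.5-fold by edgeR's quasi-likelihood test, where 0% of all tested genes were called. At an unadjusted p under 0.05, 0 of 8 passed, against 7.22% of all genes at any fold and 2.35% with the 1.5-fold limit. DESeq2's Wald test called 25 genes and 0 members. Of the members, 5 lay lower in DTA-1 and 3 higher, where 51.9% of all genes lay lower, with a median log2 fold change of -0.05 beside -0.01 over all genes. With DTA-1 replicate 1 left out, 0.744% of 14911 genes were called and still 0 of 8 members, with edgeR adjusted p-values of 0.302 to 0.987 and a median of -0.01 beside -0.02 for all genes. At an unadjusted p under 0.05 with 1.5-fold, that fit passed 4.02% of all genes and 0 of 8 members. Groups did not overlap for 0 of 8 members, against 11.3% of all genes.

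The precision of these values bounds the size of a difference that could have been missed. For 7 of 8 members, all but Socs5, the 95% interval lay within 1.5-fold in either direction, and this also held for 7 of 8 without DTA-1 replicate 1. Intervals this narrow were found for 58.9% of all tested genes and for 85.7% of the 9817 genes with a mean of at least 5 normalized counts, and for 52.7% and 79.9% respectively without that library. The bounds were tightest for Socs2, Socs1 (0.874-fold to 1.07-fold) and Cish (0.954-fold to 1.22-fold). For Socs5 the interval ran from 0.629-fold to 1.18-fold.

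**Figure D2:**
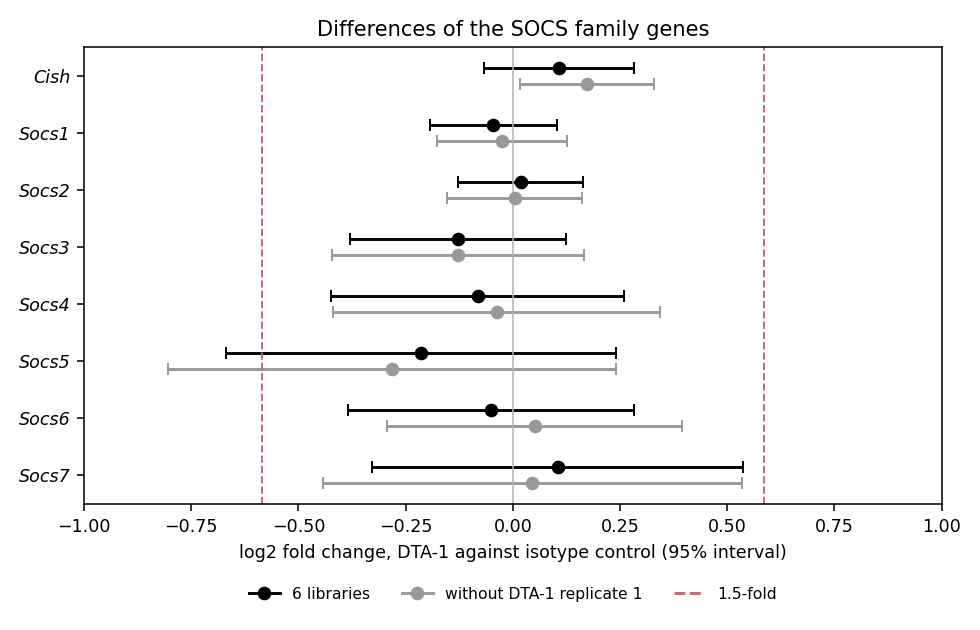
Log2 fold change of each SOCS family gene, DTA-1 against isotype control, with its 95% interval from edgeR, for 6 libraries (black) and without DTA-1 replicate 1 (grey), and dashed lines at 1.5-fold. Each black interval spans 0, the grey Cish interval (0.02 to 0.33) does not, and the Socs5 intervals alone cross a 1.5-fold line.

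**Figure D3:**
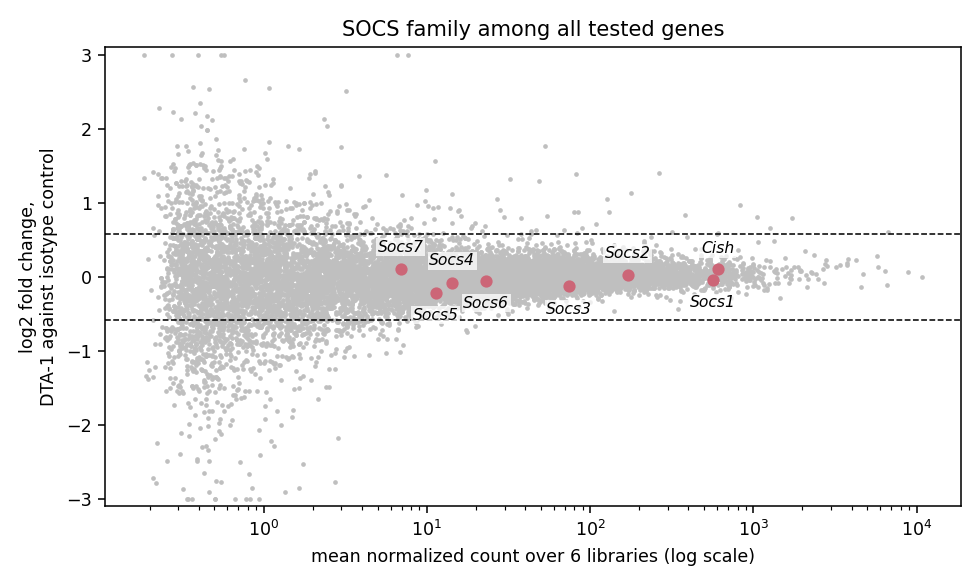
Log2 fold change, DTA-1 against isotype control, plotted against the mean normalized count over 6 libraries (log scale) for 14361 tested genes in grey and 8 SOCS family genes in red, with dashed lines at 1.5-fold and 16 genes beyond a log2 fold change of 3 drawn at the edge. The family spans the range from Socs7 at a few counts to Cish and Socs1 near 600, and all its members lie between the dashed lines.

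Levels between genes were compared per kilobase of annotated exon, as the mean over 6 libraries of normalized counts per kb. Socs1 led with 422 (392 to 447 over libraries), followed by Cish with 94.0 (84.5 to 105). Socs3 stood at 25.7 (22.5 to 31.5) and Socs2 at 17.8 (16.5 to 18.7). A gap of 8.58 times then separated Socs2 from Socs4 at 2.08, Socs6 at 2.04 and Socs5 at 1.85, and Socs7 was lowest at 0.955. The libraries of Socs4 and Socs6 overlapped, as did those of Socs6 and Socs5, whereas every other pair of neighbours in the order was separated in all 6 libraries. Before division by length Cish and Socs1 were nearly level, at 603 and 565 normalized counts, and the short Socs1 transcript (1340 bases of exon against 6419 for Cish) set them apart per length. When the longest transcript was used in place of all exons, Socs2 (40.0) stood above Socs3 (29.1), and Socs6 (3.83) and Socs5 (2.59) stood above Socs4 (2.08). Cish stood at 128 by that measure, against 94.0 over all exons. Socs1 ranked 84 among tested genes with a known length, with 99.4% of them below it, and 95.8% lay below Cish.

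Cish and Socs1 together took 90.6% to 91.6% of the summed level per kb of annotated exon in isotype control and 90.9% to 91.7% in DTA-1. Shares by longest transcript are not given. Socs4 to Socs7 took 1.17% to 1.29% and 1.19% to 1.21%. Within the leading pair, Cish took 15.2% to 16.3% in the controls and 16.4% to 18.5% with DTA-1, while Socs1 took 74.3% to 76.4% and 73.2% to 74.5%. The Cish shares of the groups lay apart and the Socs1 shares overlapped. The ratio of Cish to Socs1 on the count scale was 0.954, 1.03 and 1.05 in the controls and 1.05, 1.21 and 1.11 with DTA-1, so the groups just failed to overlap. The share and the ratio were chosen after their values had been seen, and no test is given for them.

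**Figure D4:**
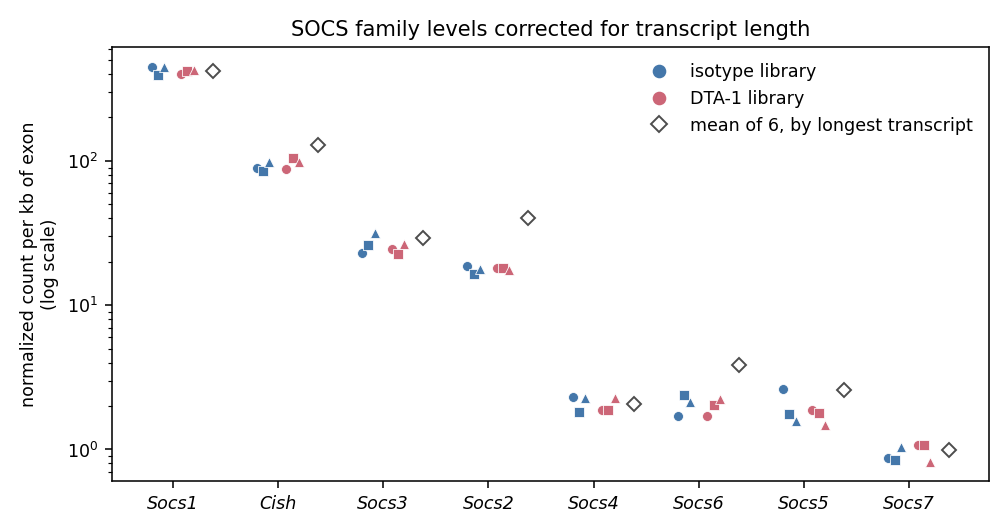
Normalized counts per kilobase of annotated exon (log scale) of the 8 SOCS family genes in each library, ordered by their mean over 6 libraries. Socs1 (422) and Cish (94.0) stand above Socs3 and Socs2, and Socs4 to Socs7 lie near or under 2 in both groups.

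The genes that act with the family were read from 9 lists holding 121 genes, of which 96 were tested. At an adjusted p under 0.05 with 1.5-fold, 0 of 96 were called in either direction (edgeR), and 11 of 96 (11.5%) had groups that did not overlap, close to the 11.3% of all genes. Among the kinases that SOCS proteins inhibit, log2 fold changes were 0.18 for Jak1 (SE 0.08), -0.10 for Jak2 (SE 0.07), 0.04 for Jak3 (SE 0.06) and 0.18 for Tyk2 (SE 0.07). Tyk2, which serves interferon and IL-12 receptors, measured 136, 141 and 132 normalized counts in the controls and 141, 158 and 165 with DTA-1. Those groups were separated by a narrow gap, and Tyk2 did not pass the test (edgeR adjusted p = 0.657, and 0.119 without DTA-1 replicate 1). Without that library Jak1 was at 0.24 with an edgeR adjusted p of 0.128.

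For Stat5a and Stat5b, which carry the IL-2 and IL-7 signal, the log2 fold changes were 0.05 (SE 0.10) and 0.06 (SE 0.08). Reads of these close paralogs may be split by the counting. Stat5a also overlaps the far more abundant Stat3, so the counts of Stat5a are uncertain. Log2 fold changes of Stat2, Stat3, Stat4 and Stat6 lay between -0.10 and 0.09, and none of them passed the test. Without DTA-1 replicate 1 the Stat5a and Stat5b values were 0.06 and -0.00, and the other 4 lay between -0.14 and 0.12.

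Receptor chains restrained by the family had 10 of 19 tested members higher and 9 lower, none of them called. Il2ra, the IL-2 receptor alpha chain and itself a STAT5 target, measured 1952, 2240 and 2140 normalized counts in the controls and 2243, 2741 and 2810 with DTA-1. Il2rg, the common gamma chain, measured 1142, 1117 and 1091 against 1107, 1802 and 1783. DTA-1 replicates 2 and 3 lay above all controls for both genes, and replicate 1 was barely above them for Il2ra and among them for Il2rg. With 6 libraries the log2 fold changes were 0.30 (SE 0.09) for Il2ra and 0.49 (SE 0.15) for Il2rg, both with an edgeR adjusted p of 0.627. Without DTA-1 replicate 1, Il2rg was called at 0.68 on the log2 scale (edgeR adjusted p = 0.000115). Il2ra reached 0.39 (edgeR adjusted p = 0.0122) in that fit, under the 1.5-fold limit. These p-values are descriptive, as the library was left out for resembling the controls. Other receptor chains with an adjusted p under 0.05 but a smaller change than 1.5-fold in that fit, named after their values were seen, were Il2rb (0.51), Il27ra (0.56) and Il10ra (0.53), which were higher, and Ifngr1 (-0.32), which was lower. In the same 5 libraries Cish and Socs2, the STAT5-induced members, stood at 0.17 and 0.00.

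The ligase that the SOCS box recruits had 3 of 9 genes higher and 6 lower, with all 9 intervals inside 1.5-fold. Its subunits Elob and Rbx1 both had a log2 fold change of -0.02 (SE 0.08 and 0.07). Other brakes on the pathway, phosphatases and PIAS proteins among them, had 7 of 13 higher and 6 lower, with Ptprc (CD45) at -0.05 and Ptpn1 at -0.08. Of 11 STAT5 targets outside the family, 4 were higher and 7 lower, and Ccnd2, a cyclin, was at -0.00. Groups did not overlap for 5 of these 11, named after their values were seen, with Il2ra, Myc and Osm higher and Pim2 and Bcl2l1 lower, where 11.3% of all genes did not overlap. Without DTA-1 replicate 1, Pim2 was at -0.49 (edgeR adjusted p = 0.0481), under the 1.5-fold limit, beside the rise of Il2ra given above.

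In a list of targets of other STAT factors, 3 of 10 tested genes were higher and 7 lower. Among them Il4ra was at -0.01 (SE 0.06), and Junb, a component of AP-1, was at 0.54 (SE 0.16) with overlapping groups and an edgeR adjusted p of 0.627. Without DTA-1 replicate 1, Junb was called at 0.75 (edgeR adjusted p = 0.000610). Junb and Il2rg were the 2 genes called among 98 pathway genes tested in those 5 libraries, against 0.744% of all genes in either direction. Both were higher, and 0.583% of all genes tested there were called higher. Over 13 alternatives the adjusted p-values of Tyk2, Il2ra, Il2rg, Junb and Asb2 were lowest without DTA-1 replicate 1 and ran up to 0.999.

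Other genes with a SOCS box had 10 of 15 higher and 5 lower. Asb2, a SOCS box adaptor, measured 673, 694 and 726 normalized counts in the controls and 701, 878 and 909 with DTA-1. Its log2 fold change was 0.25 (SE 0.09, edgeR adjusted p = 0.632), and 0.36 without replicate 1 (edgeR adjusted p = 0.0111), under the 1.5-fold limit. Wsb2, a related adaptor, was at 0.12 (SE 0.07). Groups did not overlap for 2 of these 15, where 11.3% of all genes did not overlap. These 2, named after their values were seen, were Wsb1 at 0.26 (SE 0.07) and Spsb2 at -0.55 (SE 0.19). Their edgeR adjusted p-values were 0.627 and 0.632. Spsb2 overlaps the far more abundant Tpi1, so its counts are uncertain. Signalling proteins bound by SOCS proteins had 8 of 10 higher and 2 lower, with the insulin receptor substrate Irs2 at 0.01 and the exchange factor Vav1 at 0.13. List medians without DTA-1 replicate 1 were 0.16 for the Janus kinases, 0.20 for the receptors, -0.03 for the ligase, 0.02 for the other brakes, -0.07 for the STAT5 targets, 0.05 for targets of other STATs, 0.03 for other SOCS box genes and 0.07 for the bound proteins, beside -0.02 over all genes.

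**Figure D5:**
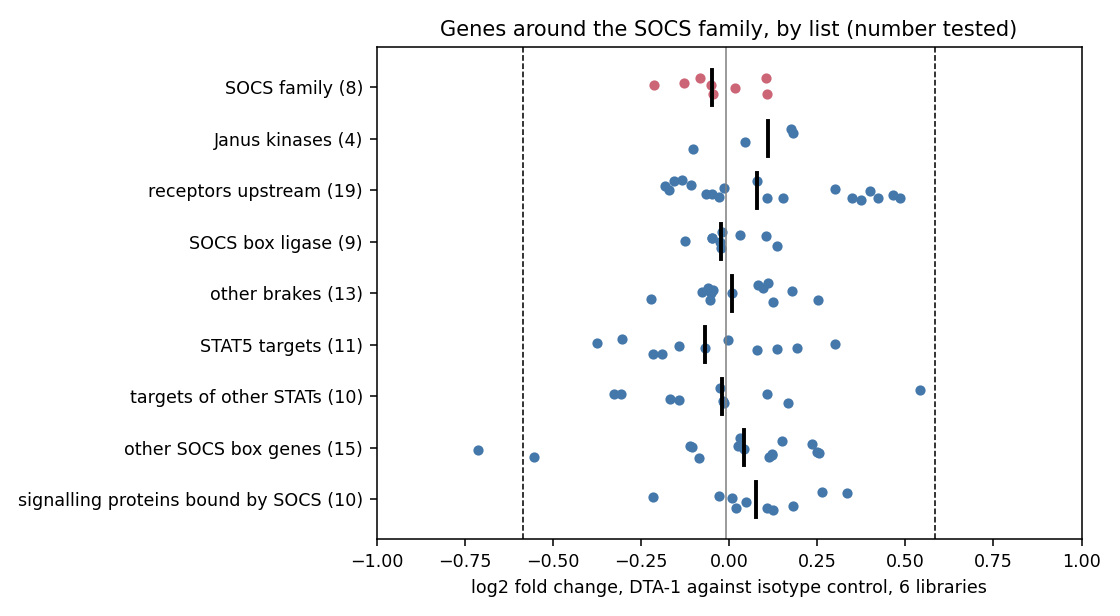
Log2 fold changes, DTA-1 against isotype control, of the tested genes in the SOCS family and in 8 lists of genes that act with it, each point a gene and each bar a list's median. The SOCS family runs from -0.21 for Socs5 to 0.11 for Cish around a median of -0.05, and no gene drawn was called with 6 libraries.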

How the data were processed

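RNA sequencing of sorted mouse ILC2s gave 3 isotype control and 3 DTA-1 libraries. The authors deposited 1 table of expected counts per gene, in which 77.8% of all values, zeros included, were whole. The submitters' processing notes name bcl2fastq 2.17.1.14, STAR 2.5.3a, Partek and mm10. The annotation release and the use of strand are not given in the sources used here. Counts were rounded and fitted with edgeR 4.0.16 (filterByExpr, TMM, robust quasi-likelihood test, Benjamini-Hochberg adjustment over 14361 genes). Genes were called at 1.5-fold or more with an adjusted p below 0.05. The common dispersion was 0.0256. A count of 3, the upper limit that a count of 0 allows, equals 0.0848 to 0.0970 CPM, for counting error only. DESeq2 1.42.0, limma 3.58.1, other scalings and filters, a replicate block and leaving out each library were alternatives, and the fit without DTA-1 replicate 1 at an unadjusted p was added after seeing the data.

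The members and lists were chosen with earlier results of these data known. Named were SOCS, Janus kinase and STAT genes and, in each other list, genes with an unadjusted p under 0.05 and 1.5-fold or, with fewer than 2 of these, the 2 of highest mean. Some items under this rule are not reported here. A member ranging at least 1.5-fold with a mean of at least 10 was to be matched to the 2 genes of most similar pattern. Exon lengths came from GENCODE M21 for 98.1% of tested genes, and the end in the deposited table is 1 past the last base. Promoters were RefSeq's (GRCm38.p6), matched for 4 of 8 members. Python 3.11.15 and R 4.3.3 were used.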

Additional observations from a re-analysis of the deposited data

How the results depend on the processing

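No SOCS family member was called in any of the 15 alternatives. Over 104 alternative values the largest absolute log2 fold change was 0.35, the smallest edgeR adjusted p was 0.302, and the sign changed in 6. These were Socs2 under total-count scaling (-0.018) and without isotype control replicate 2, Socs3 without isotype control replicate 3, Socs5 without isotype control replicate 1, and Socs6 without isotype control replicate 2 or DTA-1 replicate 1 (0.05). Leaving out 1 library gave -0.030 to 0.062 for Socs2, -0.22 to 0.0022 for Socs3, -0.35 to 0.041 for Socs5 and -0.17 to 0.063 for Socs6. Of 23 other named genes, 12 kept their sign in all 13 alternatives and 11, with an absolute log2 fold change of at most 0.10, changed it in at least 1. Leaving out 1 library moved the SOCS family's median log2 fold change between -0.09 and 0.02. Over all genes edgeR called 0, against 25 with DESeq2's Wald test, 2 without the filter, 1 with the replicate block, 337 at an unadjusted p, and 0 to 111 when 1 library was left out, with 111 without DTA-1 replicate 1. Pathway genes called numbered 0 to 2 when 1 library was left out and 4 of 98 without DTA-1 replicate 1 at an unadjusted p, where 4.02% of all genes passed. The causes were not tested. Same-numbered libraries did not deviate together (r of -0.00690, -0.00285 and 0.0152), so no pairing by number was seen. With 3 libraries a group this check cannot exclude a pairing. Socs4 to Socs7 carried standard errors of 0.15 to 0.21, and differences within their intervals were not detectable.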

Other observations

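Socs5 was the one member with a mean of at least 10 normalized counts whose libraries ranged over 1.5-fold, at 1.78 times from lowest to highest. Over the 6 libraries, the genes of most similar centred log2 pattern among 8722 were the pseudogene Rps16-ps2, with a root mean square difference of 0.0843, and the histone gene H3f3c, with 0.0992, beside a root mean square of 0.263 for Socs5 itself. Rps16-ps2 and H3f3c have near-identical copies elsewhere, so their counts are uncertain.

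Each DTA-1 library was also set against the range of the 3 controls. The library labelled DTA-1 replicate 1 had 6 of 8 members inside that range, with Socs7 above and Socs6 below. Replicate 2 had 5 inside, with Cish and Socs7 above and Socs3 below. Replicate 3 had 5 inside, with Cish above and Socs5 and Socs7 below. Cish and Socs7 were outside on the same side in 2 of the 3 libraries.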
